A study of Mus musculus with 2 samples.

Results

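The 10 genes described here encode amino acid transporters of the plasma membrane: Slc7a1, Slc7a3, Slc3a2, Slc7a5, Slc7a8, Slc1a4, Slc1a5, Slc38a1, Slc38a2 and Slc6a9. They were chosen by symbol, as a list set with earlier results of these data known, and are 10 of the 32285 genes in the deposited counts. Single-cell RNA was sequenced from 2 cultures of mouse MDSCs, with 1 library for cells given the RAF inhibitor dabrafenib at 1.5 µM (DAB) and 1 for cells given its solvent (DMSO). The marrow donors were C57BL/6 females of 10 weeks. Both cultures ran for 4 days with 50 ng/mL of GM-CSF and as much IL-6, so the control cells had these cytokines too. MDSCs are myeloid-derived suppressor cells of the granulocytic (PMN) and monocytic lineages, here grown as a mixture in vitro. The number of mice behind each library was not given in the sources used here. With 1 library per condition there is no estimate of the spread between replicates, so no test between conditions was made, and the intervals below, all at 95%, cover counting error only.

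Animal cells take up amino acids through carriers that differ in the residues they accept. When an amino acid runs short, uncharged tRNA activates the kinase GCN2, translation slows, and the transcription factor ATF4 raises a set of genes for amino acid synthesis, tRNA charging and uptake, among them several of the carriers described here. The study asked whether dabrafenib acts on MDSCs through GCN2. Some carriers work as pairs: Slc3a2 is a heavy chain (CD98) that holds light chains such as Slc7a5, Slc7a8 and the cystine carrier Slc7a11 at the cell surface. In MDSCs the uptake of arginine is of particular interest, because these cells consume it through arginase 1 and nitric oxide synthase.

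Of the 10 genes, 6 (Slc7a1, Slc3a2, Slc6a9, Slc1a4, Slc38a2 and Slc7a8) had at least 1 promoter window in the RefSeq-based promoter table for GRCm38.p6, 9 in all, each reaching from 250 bases before to 50 bases after an annotated start. Slc7a5, Slc1a5, Slc38a1 and Slc7a3 had none there. The core of the amino acid response element, a site for ATF4 with a C/EBP partner, was searched for as TGATGNAA on both strands, so that on the opposite strand it reads TTNCATCA. It was found in 1 of the 9 windows, which belong to the 6 genes, and 3.97% of the 32851 windows searched, all of 300 bases, hold it. The match lies in the window of Slc1a4 on the minus strand of chromosome 11, where it begins 4 bases before the start of the transcript. The window is shown because it is the only one among these genes with the motif, and the capitals mark the match.
Slc1a4 promoter, chr11:20332664-20332963 (GRCm38.p6, minus strand): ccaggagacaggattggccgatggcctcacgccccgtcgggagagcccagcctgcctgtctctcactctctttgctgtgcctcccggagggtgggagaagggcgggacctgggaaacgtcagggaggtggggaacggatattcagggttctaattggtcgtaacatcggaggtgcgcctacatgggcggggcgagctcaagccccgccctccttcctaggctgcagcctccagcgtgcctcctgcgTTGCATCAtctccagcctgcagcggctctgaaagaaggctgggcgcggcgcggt
A match is a description of letters and not evidence that a factor was bound there.

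Before filtering, the files held 9855 DMSO barcodes and 11631 DAB barcodes with 106792967 and 165506902 unique molecular identifiers (UMIs). After filters on mitochondrial share and doublets 9023 DMSO cells (median 7482 UMIs) and 10460 DAB cells (median 9351) remained, and the libraries had 152 barcode sequences in common. As a check of the label, cells were thinned to 1500 UMIs (shallower cells, 436 in DMSO and 292 in DAB, were not used in any thinned share) and searched for Itgam, the CD11b gene that defines myeloid cells. It was found in 44.9% of the cells in DMSO and 49.7% in DAB, against 0.781% and 3.39% of B cell-like cells, in which free RNA can give a UMI. The cells fell into 29 clusters, made without the 10 transporter genes and lettered by size. Of these clusters 15 could be named from marker genes, and 42.7% of DMSO cells and 47.8% of DAB cells stayed in unnamed clusters. Class names ending in -like rest on those markers alone. The comparison within classes used the 5 named classes with at least 200 cells in each library, and the libraries filled some of them with different clusters. Intermediate granulocyte-like cells (1288 DMSO and 550 DAB) came from clusters F (800 and 177 cells) and H (488 and 373). Mature PMN-like cells (1260 and 1838) came from B (815 and 964), K (147 and 602) and N (298 and 272), and chemokine-high granulocyte-like cells (285 and 1299) from I (162 and 690) and L (123 and 609). Immature monocyte-like cells were cluster A (1163 and 649) and mature monocyte-like cells cluster G (463 and 483).

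Over all cells, 9 of the 10 transporters were higher in DAB by a log2 ratio of at least 0.5, the size from which a direction is named here, and none was lower. All 10 reached the minimum of 20 UMIs. Slc7a3, 1 of the 9, did so mainly through DAB (8 UMIs in DMSO and 715 in DAB), so its direction is not independent of this minimum. Among the 16395 genes that did so, 16.2% were higher by this size and 19.1% were lower. The median log2 ratio of the transporters was 1.58, beside -0.02 for all these genes. Since the transporters were chosen with earlier results of these data known, the contrast describes them and is not a test. Levels are given as CPM, a gene's UMIs per 1000000 UMIs of the library, in which each captured molecule counts once. Whether molecules of different genes are captured equally well was not tested, so an order of genes by level is an order of counts. The most abundant transporter was Slc3a2 in both libraries. Slc7a3 was the least abundant, in DAB with an interval that overlapped that of Slc6a9.

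**Figure D1:**
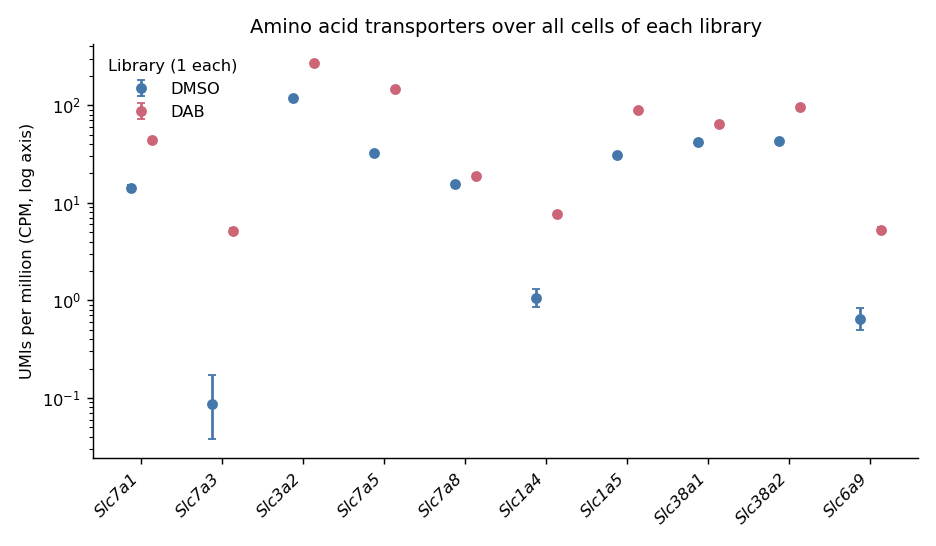
Level of each transporter over all cells, in UMIs per 1000000 (CPM) on a log axis, in the DMSO and the DAB library (1 each). Bars are exact 95% Poisson intervals and are mostly smaller than the points. The DAB point lies above the DMSO point for every gene, by least for Slc7a8 (15.4 and 18.8 CPM) and by most for Slc7a3 (0.0875 and 5.14 CPM).

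The cationic carriers take up arginine, lysine and ornithine. Slc7a1 (ENSMUSG00000041313, chromosome 5 from 148327410 to 148399904), the widely expressed member also called CAT1, stood at 14.3 CPM in DMSO (13.5 to 15.1) and 43.9 CPM in DAB (42.80 to 45.01), which gives a log2 ratio of 1.62 (1.53 to 1.71). Among the thinned cells its UMIs were seen in 1.75% (DMSO) and 5.02% (DAB), and in whole cells in 10.8% and 31.1%. No class here is one that should lack the gene. Free RNA was gauged instead from 7 granulocyte genes in B cell-like cells, where they reached a median of 0.997% (DMSO) and 4.27% (DAB) of their level over all cells, with single genes between 0.781% and 11.4% in DMSO and between 0 and 8.32% in DAB. At the median, free RNA would give 0.142 and 1.87 CPM of Slc7a1.

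Slc7a1 was higher in DAB in all 5 classes compared. Its level went from 4.77 to 21.5 CPM in intermediate granulocyte-like cells, from 12.5 to 27.5 in mature PMN-like cells and from 10.5 to 28.9 in the chemokine-high granulocyte-like class. Their log2 ratios were 2.18 (1.68 to 2.69), 1.14 (0.72 to 1.58) and 1.46 (0.81 to 2.19). Immature monocyte-like cells had 14.7 and 46.9 CPM, and mature monocyte-like cells 12.9 and 37.7, log2 ratios of 1.67 (1.47 to 1.88) and 1.55 (1.26 to 1.85). In the order of the 10 named classes by Slc7a1 level (T or NK cell-like cells left out for their 16 and 23 cells), all 9 pairs of neighbours had overlapping intervals in each library. The order ran from B cell-like (52.3 CPM) to intermediate granulocyte-like cells in DMSO and from granulocyte progenitor-like (55.0 CPM) to activated dendritic-like cells (13.4 CPM) in DAB. Unnamed clusters stood above these tops: U in both libraries (73.4 and 197 CPM) and O in DAB (62.6 CPM). Taking the 24 clusters that held 100 or more cells of both libraries, 22 had a higher Slc7a1 level in DAB and 2 a lower one. The 2 were cluster N of the mature PMN-like class, with 14 DMSO and 7 DAB UMIs (log2 ratio -0.82, -2.37 to 0.58), and the B cell-like cluster V, with 37 and 36 UMIs (-0.69, -1.40 to 0.01). Both intervals include 0, as do those of 3 of the 22 clusters with a higher level (I, S and Z).

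Slc7a3 (ENSMUSG00000031297, chromosome X from 101079210 to 101086020), a cationic carrier known mainly from the brain, had 8 UMIs in all DMSO cells and 715 in all DAB cells. Those are 0.0875 CPM (0.0378 to 0.172) and 5.14 CPM (4.77 to 5.53), a log2 ratio of 5.88 with an interval of 4.89 to 7.09. The gene ranked 6th from the top by ratio among the 16368 genes tested that had UMIs in both libraries. In 8587 thinned DMSO cells no Slc7a3 UMI was found, which allows a share of up to 0.0349% of cells with a UMI, and 0.334% of thinned DAB cells had one. Its DAB level was uneven over the clusters. Besides cluster W, described next, it was highest in the unnamed clusters U (19.8 CPM), T (17.5), M (16.4), O (11.6) and S (11.05), of which T had Prtn3, Gem and Thy1 among its leading genes and O cell cycle genes such as Ube2c and Top2a.

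Among named classes Slc7a3 was highest in granulocyte progenitor-like cells (cluster W, led by Elane and Mpo), with 3 UMIs in 180 DMSO cells and 103 in 111 DAB cells. Its level there was 1.36 CPM (0.281 to 3.99) and 39.6 CPM (32.4 to 48.1), and the DAB interval lies above that of the next class, basophil- or mast cell-like cells at 10.4 CPM (5.20 to 18.6). In mature monocyte-like cells it had 1 and 52 UMIs, a log2 ratio of 5.11 (2.56 to 10.4). DMSO had none in the other 4 classes compared, whose DAB levels were low. Intermediate granulocyte-like cells had 1.47 CPM on 9 UMIs, all in cluster F, and immature monocyte-like cells 0.673 CPM on 8 UMIs. These are 4.72 and 4.62 times the level that 3 UMIs would give in DMSO, which leaves out the counting error of the DAB UMIs. Free RNA as gauged above would give 0.219 CPM of Slc7a3 in DAB and 0.000872 CPM in DMSO. Its part in these 2 levels was not tested. Mature PMN-like and chemokine-high granulocyte-like cells had 4 and 2 DAB UMIs.

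The third cationic carrier detected, Slc7a2 (CAT2), is not one of the 10 genes and went the other way. Its level over all cells was 202 CPM in DMSO and 44.9 in DAB, which gives a log2 ratio of -2.17 (-2.21 to -2.13). Of its 18480 DMSO UMIs 11382 lay in immature monocyte-like cells, which were 12.9% of DMSO and 6.20% of DAB cells. How far this change of mix enters the ratio was not tested. Of the UMIs of Slc7a1, Slc7a2 and Slc7a3 together, Slc7a2 made up 93.4% in DMSO (93.0 to 93.7) and 47.8% in DAB (46.9 to 48.7). Slc7a2 was among the genes the cells were clustered on and a leading gene of cluster A, so its levels by class are not independent of the classes. In immature monocyte-like cells its share of the UMIs of the 3 genes was 97.4% in DMSO and 75.5% in DAB. In mature monocyte-like cells it was 90.4% and 4.75%. In intermediate granulocyte-like cells it was 71.1% and 33.2%, with 113 Slc7a2 UMIs of 9653037 in DMSO and 70 of 6132230 in DAB. In mature PMN-like cells it went from 82.3% to 66.5%, with Slc7a2 itself at 58.1 and 55.7 CPM (log2 ratio -0.06, -0.28 to 0.16). Slc7a1 in these cells was higher in DAB, as given above.

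**Figure D2:**
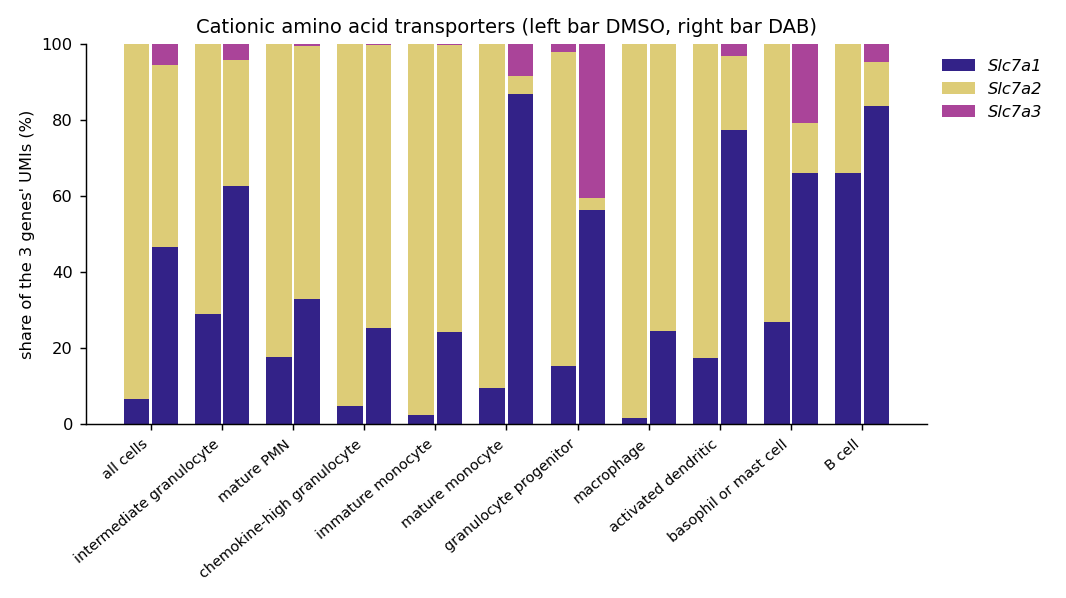
Share of UMIs of the 3 cationic transporters (Slc7a1, Slc7a2 and Slc7a3) over all cells and in 10 named classes, in percent of their sum, with DMSO as the left and DAB as the right bar of each pair. Slc7a2 took the largest share of the DMSO bar in all cells (93.4%) and in every class drawn except B cell-like cells (33.9%), and its share was smaller in the DAB bar of every pair.

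The arginine users themselves are given for context. Arg1, which splits arginine to ornithine and urea, had a level of 1102 CPM in DMSO and 500.4 in DAB, which gives a log2 ratio of -1.14 (-1.15 to -1.13). Nos2, the inducible nitric oxide synthase, had 111 and 10.5 CPM, a log2 ratio of -3.40 (-3.48 to -3.32). Nos2 was lower in all 5 classes, whereas Arg1 was higher in intermediate granulocyte-like (120 and 278 CPM) and mature PMN-like cells (1060 and 1589 CPM) and lower in immature monocyte-like (2583 and 772 CPM) and mature monocyte-like cells (154 and 13.5 CPM). Both genes, like Slc7a2, were among the leading genes of cluster A.

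Large neutral amino acids such as leucine enter through Slc7a5 and Slc7a8, which need the heavy chain Slc3a2. Slc7a5 (LAT1, ENSMUSG00000040010, chromosome 8 from 121881150 to 121907694) had a level of 32.3 CPM in DMSO (31.2 to 33.5) and 145 CPM in DAB (143 to 147), which gives a log2 ratio of 2.17 (2.11 to 2.23). Its UMIs were seen in 3.84% (DMSO) and 11.7% (DAB) of thinned cells and in 17.9% and 42.9% of whole cells. Free RNA as gauged above would give 0.322 and 6.21 CPM. The largest number of Slc7a5 UMIs in 1 cell was 18 in DMSO and 52 in DAB.

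In the 5 classes Slc7a5 went from 20.4 to 78.4 CPM (intermediate granulocyte-like), 13.96 to 42.3 (mature PMN-like), 15.2 to 43.8 (chemokine-high granulocyte-like), 26.6 to 128 (immature monocyte-like) and 44.6 to 174 (mature monocyte-like). The log2 ratios ran from 1.52 (0.98 to 2.12) in the chemokine-high granulocyte-like to 2.27 (2.13 to 2.41) in the immature monocyte-like class. The gene was higher in 23 of the 24 clusters. Only the B cell-like cluster V fell short, with 46 and 81 UMIs (log2 ratio 0.16, -0.38 to 0.72). Of the named classes, basophil- or mast cell-like cells had the highest level in both libraries, 205 CPM in DMSO (164 to 253) and 474 in DAB (433 to 517). This small class has 51 DMSO and 90 DAB cells. It leaves out the unnamed cluster R (53 and 398 cells), which was nearest to it by markers. The intervals just given lie above those of the class next in order. That class was B cell-like in DMSO and mature monocyte-like in DAB (174 CPM). Unnamed clusters stood above that next class: U (306 CPM), T (253), O (237) and E (190) in DAB, and U (83.9) in DMSO. Of the 10 named classes, mature PMN-like cells had the lowest level in both libraries. There was no gap to chemokine-high granulocyte-like cells in DAB or to activated dendritic-like cells (14.9 CPM) in DMSO.

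Slc3a2 (ENSMUSG00000010095, chromosome 19 from 8706882 to 8723369) had a level of 118 CPM in DMSO (115 to 120) and 269 CPM in DAB (267 to 272), which gives a log2 ratio of 1.195 (1.16 to 1.23). Its UMIs were found in 15.2% and 28.5% of thinned cells, and in 49.8% and 71.8% without thinning. Between classes the ratio was uneven. It was 1.27 (1.12 to 1.41) in intermediate granulocyte-like cells, at 67.1 and 161 CPM, and 1.23 (1.16 to 1.31) in immature monocyte-like cells, at 118 and 277 CPM. In mature PMN-like cells, at 149 and 208 CPM, it was 0.48 (0.35 to 0.61) and just under the size named as a direction. The DMSO level of these cells was above that of immature monocyte-like cells, without overlap of the intervals. Within its clusters B, K and N the ratio was 0.53, 0.87 and 0.45, and with other clusterings, cell filters or scaling the class ratio lay between 0.31 and 0.87. Chemokine-high granulocyte-like cells, pooled over their clusters, had the highest Slc3a2 level of the 5 classes in both libraries, 180 CPM (161 to 200) and 340 CPM (329 to 352). Cluster I had 251 and 389 CPM and cluster L 123 and 314 CPM. In DMSO cluster L thus lay below mature PMN-like cells. Over all named classes basophil- or mast cell-like cells stood highest, at 457 and 511 CPM, with a log2 ratio of 0.16 (-0.08 to 0.41).

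Slc7a8 (LAT2, ENSMUSG00000022180, chromosome 14 from 54722209 to 54781946) was the 1 transporter of the 10 that did not reach the size over all cells. Its level was 15.4 CPM in DMSO (14.6 to 16.3) and 18.8 in DAB (18.1 to 19.6), which gives a log2 ratio of 0.29 (0.19 to 0.38). In the 5 classes the ratio lay between -0.15 (-0.61 to 0.31) in mature monocyte-like cells and 0.37 (-0.14 to 0.90) in mature PMN-like cells, and 4 of the 5 intervals include 0. The gene differed more between classes than between libraries. It reached 126 CPM (94.6 to 165) and 211 CPM (184 to 241) in basophil- or mast cell-like cells and 41.6 and 37.6 CPM in macrophage-like cells, and had 0 UMIs in DMSO and 2 in DAB in B cell-like cells. In the small basophil- or mast cell-like class, which is not among the 24 clusters, the DAB interval thus lies above the DMSO interval. Of the 20 clusters with enough UMIs, 3 had a higher and 2 a lower level in DAB. The interval left out 0 in 1 of each, both unnamed. These were cluster C, with 11.02 and 18.4 CPM (log2 ratio 0.74, 0.2994 to 1.197), and cluster O, with 14.03 and 9.10 CPM (-0.62, -1.07 to -0.18).

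UMIs of the 6 light chains that can pair with Slc3a2 were added up to see how their mix went with treatment. These are shares of RNA counts, and the pairs formed at the protein level were not measured. Slc7a5 made up 19.3% of the light chain UMIs in DMSO and 41.0% in DAB, while Slc7a11 made up 57.8% and 47.2%, Slc7a7 10.4% and 4.75%, and Slc7a8 9.20% and 5.31%. Light chain UMIs per Slc3a2 UMI were 1.43 in DMSO and 1.32 in DAB, and the classes went in both directions. They were higher in DAB in intermediate granulocyte-like (1.29 and 1.50) and mature PMN-like cells (0.81 and 1.28). They were lower in chemokine-high granulocyte-like (2.05 and 1.88), immature monocyte-like (1.89 and 1.59) and mature monocyte-like cells (1.29 and 0.99). In mature monocyte-like cells Slc7a5 went from 23.7% to 61.0% and Slc7a11 from 52.3% to 20.8%. In chemokine-high granulocyte-like cells Slc7a11 was by far the most abundant light chain in both libraries, with 86.3% and 87.3%, and Slc7a5 had 4.14% and 6.85%. Mature PMN-like cells were like them, with 74.3% and 75.1% from Slc7a11.

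**Figure D3:**
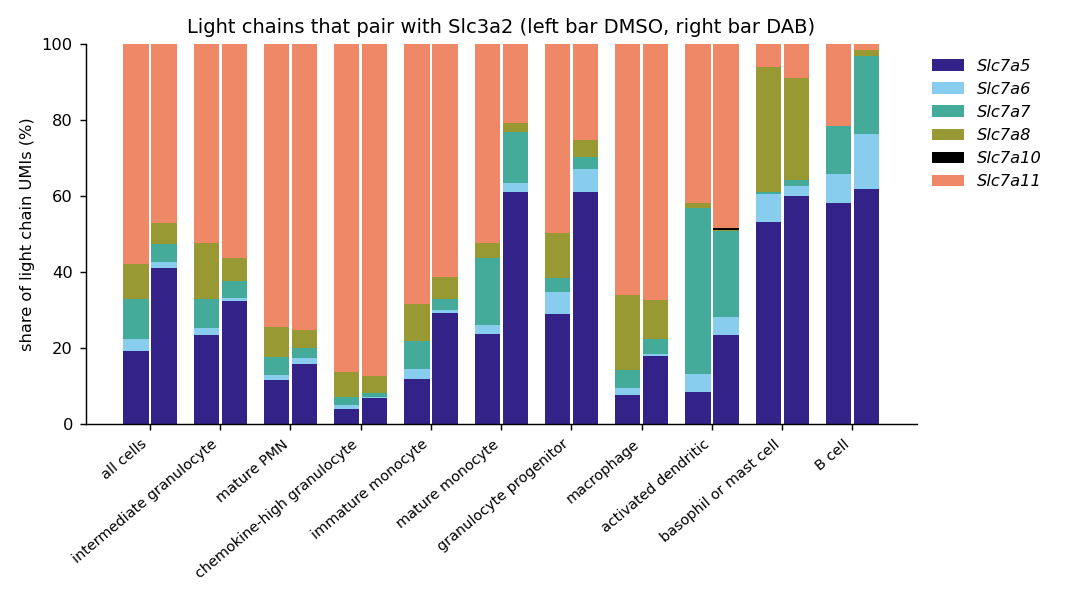
Share of UMIs of the 6 light chains of Slc3a2, in percent of their sum, over all cells and in 10 named classes, with DMSO as the left and DAB as the right bar of each pair. Slc7a5 and Slc7a11 filled most of the bars of all cells, and the Slc7a5 share was larger in the DAB bar of every pair, with the smallest shares in chemokine-high granulocyte-like cells (4.14% and 6.85%).

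Cells with a Slc7a5 UMI also had a Slc3a2 UMI more often than cells without one, over all cells. After thinning this was 22.4% (18.0 to 27.3) against 14.9% (14.2 to 15.7) of DMSO cells and 37.5% (34.7 to 40.3) against 27.3% (26.4 to 28.2) of DAB cells. Whether the mix of classes accounts for it was not tested. Within the 5 classes the intervals of the 2 shares did not overlap in immature monocyte-like DMSO cells, where they were 34.0% (20.9 to 49.3) and 12.7% (10.8 to 14.8), and overlapped in the other 9 pairs.

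Slc1a4 and Slc1a5 exchange small neutral amino acids, and Slc1a5 (ASCT2) is a main route for glutamine. Slc1a5 (ENSMUSG00000001918, chromosome 7 from 16781340 to 16798274) had a level of 30.6 CPM in DMSO (29.4 to 31.7) and 88.4 CPM in DAB (86.9 to 90.0), which gives a log2 ratio of 1.53 (1.47 to 1.59). It was higher in all 5 classes, with log2 ratios from 0.85 (0.54 to 1.16) in mature PMN-like cells, at 24.2 and 43.5 CPM, to 2.13 (1.80 to 2.46) in intermediate granulocyte-like cells, at 10.98 and 47.9 CPM. Those 2 intervals do not overlap, but whether the classes differ beyond the spread of replicates could not be tested. In cluster N, also mature PMN-like, the ratio was 0.06 (-0.82 to 0.94) on 25 and 23 UMIs. Of the named classes, granulocyte progenitor-like cells held the highest DAB level, 173 CPM (158 to 190) beside 36.9 CPM (29.3 to 45.8) in DMSO. The unnamed cluster U stood higher, at 199 CPM in DAB beside 67.4 CPM in DMSO. Cluster U was shallow, with a median of 3562.5 UMIs, and had Gm26917, Gria3 and Neat1 among its leading genes. Of the 24 clusters it also had the highest DAB level of Slc7a1 (197 CPM), Slc7a5 (306), Slc38a2 (233) and Slc7a8 (67.2). What sets this cluster apart was not tested.

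Slc1a4 (ASCT1, ENSMUSG00000020142, chromosome 11 from 20302180 to 20332713), the gene with the motif in its promoter window shown above, was sparse. It had 97 UMIs in DMSO and 1060 in DAB, 1.06 CPM (0.860 to 1.29) and 7.62 CPM (7.17 to 8.09), a log2 ratio of 2.85 (2.54 to 3.16). Mature monocyte-like cells had most of it among the 5 classes in both libraries, 2.25 CPM (1.40 to 3.45) and 19.9 CPM (17.6 to 22.4), a log2 ratio of 3.14 (2.50 to 3.86). Immature monocyte-like cells had 0.680 and 5.05 CPM, with a ratio of 2.89 (2.04 to 3.85). In the 3 granulocyte classes it had 2, 2 and 0 UMIs in DMSO and 9, 11 and 17 in DAB, too few to be compared. Over the clusters its DAB level was highest in the unnamed cluster U (26.2 CPM on 37 UMIs), followed by the mature monocyte-like cluster G and the unnamed cluster T (16.7 CPM).

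Slc38a1 and Slc38a2 carry glutamine, alanine and other small neutral amino acids together with sodium, and Slc38a2 (SNAT2) is known to be raised when amino acids run short. Slc38a2 (ENSMUSG00000022462, chromosome 15 from 96687392 to 96699730) had a level of 43.2 CPM in DMSO (41.8 to 44.5) and 97.0 CPM in DAB (95.4 to 98.6), which gives a log2 ratio of 1.17 (1.12 to 1.22). In DAB 4 of the 5 classes, each pooled over its clusters, lay close together, between 101 and 108 CPM. The chemokine-high value pools cluster I at 69.9 CPM and cluster L at 118 CPM, with log2 ratios of 0.88 and 1.92. Mature monocyte-like cells stood at 42.0 (38.7 to 45.6) in DAB. In DMSO those cells stood at 28.9 CPM (25.5 to 32.5), a log2 ratio of 0.54 (0.33 to 0.75), and immature monocyte-like cells, whose DMSO interval overlaps, at 31.6 (29.2 to 34.1), a log2 ratio of 1.71 (1.57 to 1.85). Mature monocyte-like cells, which had the highest Slc7a5 and Slc1a4 levels of the 5 classes in both libraries, thus had the lowest Slc38a2 level, as they had the lowest Slc7a8 level. Over the 10 named classes all 9 pairs of neighbours in the order of Slc38a2 levels overlapped in each library. With other clusterings, cell filters or scaling the ratio in mature monocyte-like cells lay between 0.35 and 0.66.

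Slc38a1 (SNAT1, ENSMUSG00000023169, chromosome 15 from 96571418 to 96642913), which lies near Slc38a2 on the chromosome, stood at 41.9 CPM in DMSO (40.6 to 43.2) and 64.2 CPM in DAB (62.9 to 65.6), which gives a log2 ratio of 0.62 (0.56 to 0.67). This was the smallest ratio of the 9. Of the 5 classes it reached the size in intermediate granulocyte-like cells alone, at 22.9 and 34.4 CPM (0.59, 0.31 to 0.87). Of the clusters of that class, F had 0.84 (0.45 to 1.23) and H had 0.33 (-0.09 to 0.75), under the size. Outside the 5, granulocyte progenitor-like (50.05 and 88.5 CPM, 0.82) and macrophage-like cells (42.1 and 73.3 CPM, 0.80) reached the size too. Immature monocyte-like cells had 0.44 (0.28 to 0.59) and mature monocyte-like cells 0.49 (0.34 to 0.63), with intervals above 0. It was 0.22 and 0.11 in mature PMN-like and chemokine-high granulocyte-like cells, with intervals that include 0. These calls depend on the processing. With scaling by the median of ratios within the class, intermediate granulocyte-like cells fell to 0.46 and immature and mature monocyte-like cells reached 0.50 and 0.53, and without doublet removal mature PMN-like cells reached 0.54. The chemokine-high value hid opposite directions: in cluster I the level went from 58.2 to 38.3 CPM (log2 ratio -0.60, -1.08 to -0.10) and in cluster L from 28.2 to 48.3 CPM (0.77, 0.23 to 1.36). In all, 9 of the 24 clusters had a higher and 1 a lower level in DAB.

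Slc6a9 (GLYT1, ENSMUSG00000028542, chromosome 4 from 117834506 to 117875198), a sodium-coupled glycine carrier best known from glia and red cell precursors, had 59 UMIs in DMSO and 737 in DAB. Its level was 0.645 CPM (0.491 to 0.832) and 5.30 CPM (4.92 to 5.69), a log2 ratio of 3.04 (2.65 to 3.45). In immature monocyte-like cells it had 11 and 47 UMIs (2.89, 1.92 to 3.98) and in mature monocyte-like cells 2 and 61 (4.34, 2.42 to 7.41). Chemokine-high granulocyte-like cells had 1 and 29 UMIs, and the interval of their ratio (2.42, -0.17 to 7.77) includes 0. The highest levels of the named classes were those of basophil- or mast cell-like cells, 23.8 CPM (11.4 to 43.8) in DMSO and 36.9 (26.3 to 50.5) in DAB, followed in DAB by granulocyte progenitor-like cells at 17.7 CPM (12.96 to 23.6) beside 0.910 in DMSO.

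In intermediate granulocyte-like cells 6 of 7 transporters with at least 20 UMIs were higher in DAB, where 25.2% of 10681 genes were, and none was lower, beside 15.9% of genes. Mature PMN-like cells had 4 of 7 higher and none lower (18.3% and 12.2% of 10899 genes). Chemokine-high granulocyte-like cells had 6 of 8 higher and none lower (17.7% and 16.9% of 10653 genes). Immature monocyte-like cells had 7 of 9 higher and none lower (12.2% and 23.6% of 12316 genes). Mature monocyte-like cells had 8 of 10 higher and none lower (17.1% and 23.1% of 11745 genes). Slc6a9, Slc1a4 and Slc7a3 passed the minimum in some classes only, in 5 of 6 cases with fewer than 20 UMIs in DMSO. They passed there only with their DAB UMIs, so their direction is not independent of the minimum. For the 7 transporters that passed in every class, 25 of 35 values were higher, 10 lay between and none was lower. The 10 were Slc7a8 in all 5 classes, Slc38a1 in 4 and Slc3a2 in mature PMN-like cells.

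**Figure D4:**
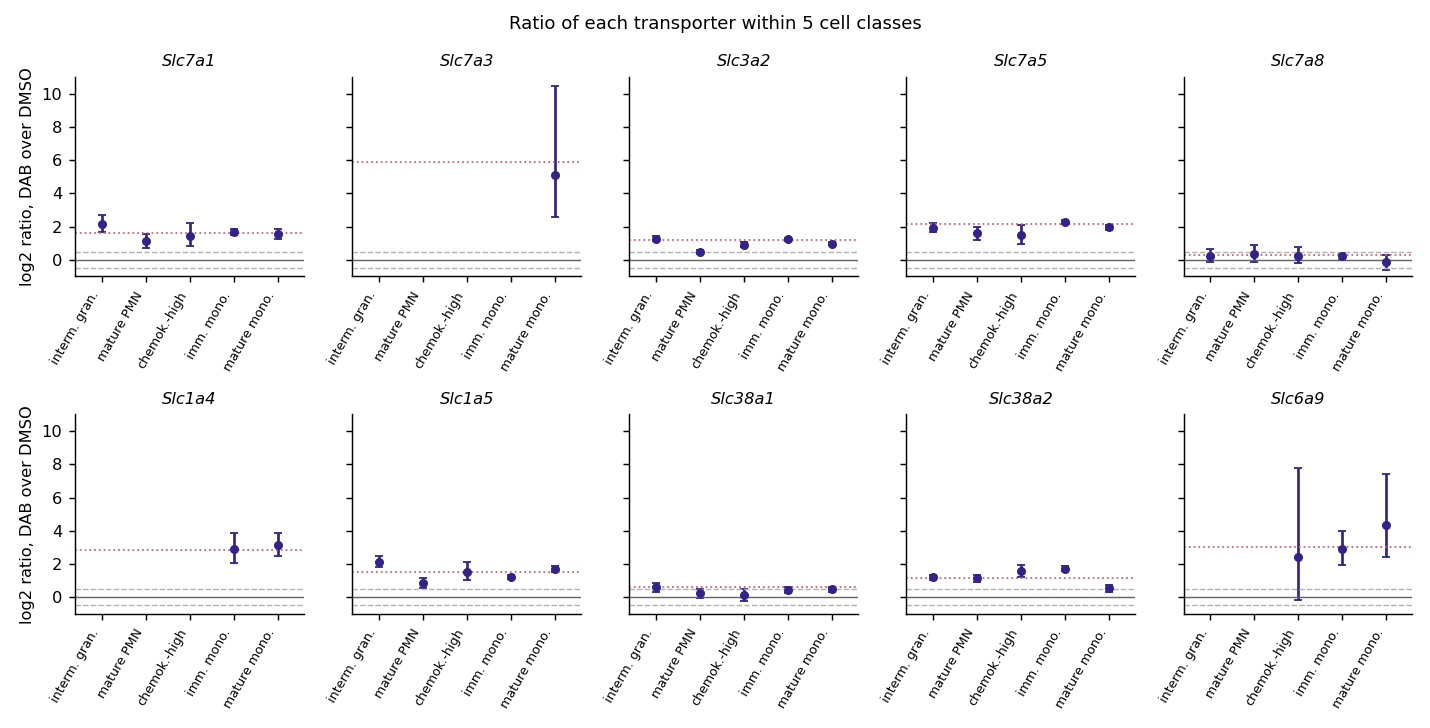
Log2 ratio of DAB over DMSO for each transporter within the 5 classes compared, as points with exact 95% intervals for counting error. The dotted line is the ratio over all cells and the dashed lines mark 0.5 and -0.5. A class with fewer than 20 UMIs of the gene has no point. Points of Slc7a5 lie between 1.52 and 2.27, and those of Slc7a8 between -0.15 and 0.37.

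**Figure D5:**
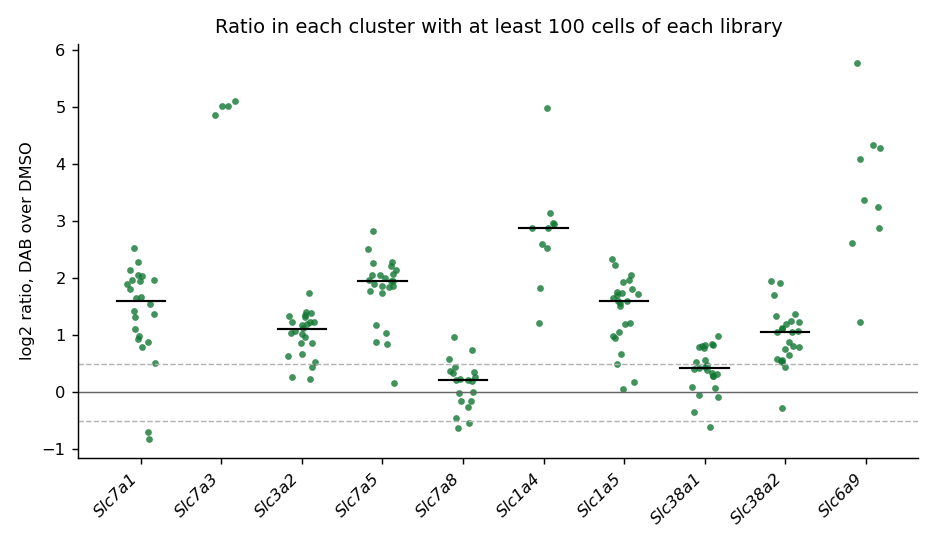
Log2 ratio of DAB over DMSO by cluster, for the 24 clusters that held 100 or more cells of both libraries, 1 point per cluster with at least 20 UMIs of the gene. Black bars are medians over clusters (1.60 for Slc7a1, 1.11 for Slc3a2, 1.95 for Slc7a5), drawn only where each such cluster had DMSO UMIs, and clusters with none in DMSO are not drawn. Slc7a1 has 2 points below 0 and Slc7a5 and Slc3a2 have none.

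Cycling cells, taken as those with at least 3 UMIs of a proliferation list after thinning, were 9.77% of DMSO and 7.53% of DAB cells. In DMSO 5 of the 9 transporters with at least 20 UMIs were higher in them by the size and none was lower, where 21.9% of 14553 genes were higher and 15.3% lower. In DAB 7 of 10 were higher and none was lower, where 23.1% of 15239 genes were higher and 19% lower. Slc7a5 had 51.3 CPM in cycling and 28.6 CPM in other DMSO cells, and 217 and 132 CPM in DAB. Slc7a1 had 26.1 and 11.9 CPM in DMSO and 64.7 and 39.9 in DAB. Both genes were higher in the other DAB cells than in the cycling DMSO cells. Slc7a3 had 15.2 CPM in cycling and 3.21 CPM in other DAB cells (log2 ratio 2.24, 2.02 to 2.45). Slc38a2 and Slc7a8 went slightly the other way in DAB, Slc38a2 at 87.7 and 98.8 CPM (-0.17, -0.24 to -0.10) and Slc7a8 at 16.2 and 19.3 CPM (-0.25, -0.42 to -0.094). Cycling cells are a different mix of classes from other cells, and within classes the differences varied. In intermediate granulocyte-like cells the log2 ratio of cycling over other cells for Slc7a5 was -0.26 (-0.99 to 0.40) in DMSO and 0.49 (0.16 to 0.81) in DAB. In mature monocyte-like cells that of Slc7a1 was 1.03 (0.29 to 1.70) in DMSO and 0.03 (-0.44 to 0.47) in DAB.

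Other amino acid transporters went in both directions. Of 45 further genes listed, 23 reached 20 UMIs, and of these 4 were higher, 8 were lower and 11 lay between, beside the 16.2% and 19.1% of all genes that were higher and lower. The median log2 ratio was -0.17. The 7 with at least 20 CPM in a library were Slc7a2, given above, and 6 others. Slc7a11, the cystine carrier, stood at 97.0 and 167 CPM (log2 ratio 0.79), and Slc15a3, a carrier of histidine and small peptides in endosomes and lysosomes, at 55.8 and 82.4 CPM (0.56). Slc38a10 stood at 38.5 and 49.9 CPM (0.37) and Slc6a6, the taurine carrier, at 83.1 and 82.5 CPM. The lysosomal amino acid sensor Slc38a9 stood at 27.2 and 24.2 CPM and the neutral carrier Slc43a2 at 59.2 and 49.2. Slc7a11 did not go with the 10 genes in every class. It was higher in 4 of the 5 classes, for example at 45.3 and 136 CPM in intermediate granulocyte-like cells, and lower in mature monocyte-like cells, at 98.2 and 59.2 CPM (log2 ratio -0.73, -0.87 to -0.59), where Slc7a5 was higher.

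For the response that is known to raise several of these carriers, a list of 25 ATF4-linked genes other than the transporters gave 19 higher, 2 lower and 4 between, again beside 16.2% and 19.1% of all genes. Its median log2 ratio was 1.52. The 5 with the largest ratio in size were Cth, which makes cysteine (22 and 4570 UMIs, log2 ratio 7.09), Stc2 (5.73 and 56.3 CPM, 3.30), Chac1, a glutathione-degrading enzyme (4.03 and 27.8 CPM, 2.78), the transcription factor Atf5 (22.8 and 153 CPM, 2.75) and the pseudokinase Trib3 (15.7 and 94.96 CPM, 2.60). The 2 lower genes were Atf3 (57.1 and 24.3 CPM, log2 ratio -1.23) and Ddit4 (195 and 130 CPM, -0.59). Atf4 itself stood at 149 and 263 CPM (0.81). The list's overall direction in these libraries was known when it was written.

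Genes whose profile was most like that of each transporter with at least 1000 UMIs were sought among 5903 genes. There were 48 profiles, the 24 clusters in each library. The measure was Pearson's r of log2(CPM + 10). Profiles of 1 library share its depth and its treatment, so r describes these profiles and carries no p. Slc7a5 was closest to Slc1a5 (r = 0.920), Aldh18a1 of proline synthesis (0.915) and the leucyl-tRNA synthetase Lars (0.912). Slc1a5 was closest to the tRNA synthetases Lars (0.939), Iars (0.938) and Tars (0.928), Slc7a1 to Lars (0.890), Iars (0.884) and Slc1a5 (0.880), and Slc3a2 to the synthetases Aars (0.853) and Sars (0.830) and to Slc25a33 (0.835). Slc1a4 was nearest to Gem (0.853), Cdh17 (0.837) and Slc7a5 (0.835), Slc38a1 to Kcnq5 (0.861), Bcl2 (0.856) and Smarcc1 (0.846), Slc38a2 to Myo1d (0.838), Man1a2 (0.797) and Rab28 (0.794), and Slc7a8 to Snx24 (0.913), Man1c1 (0.857) and Osbpl8 (0.851). Kcnq5 was a leading gene of the unnamed cluster U, where Slc38a1 had its highest levels of the 24 clusters (147 and 196 CPM). How far this cluster carries the r of Slc38a1 was not tested. Among these transporters themselves, so without Slc6a9 and Slc7a3, r ran from 0.920 for Slc7a5 with Slc1a5 to -0.000982 for Slc1a4 with Slc7a8.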

How the data were processed

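The deposited files hold unnormalized UMI counts for each gene in each barcode. The authors made them by running Cell Ranger 7.0.0 against mm10 on 10x Genomics 5′ v2 libraries. The lowest barcode held 500 UMIs in DMSO and 502 in DAB.

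A mitochondrial share above 10% led to removal (55 DMSO and 89 DAB barcodes). No barcode lay over 4 median absolute deviations from the median of log UMIs or log genes. Each cell's doublet score came from artificial doublets, and the top 0.8% per 1000 cells were dropped (777 and 1082), so some doublets remain. Pearson residuals of 3000 variable genes, without the 10 transporters, gave 40 principal components, whose libraries were joined through 57164 mutual nearest neighbours (k = 20) before Leiden clustering at resolution 0.9. Clusters were named by a rule, taken from earlier work on these data, that had been set after clusters were seen. The transporters, lists and markers were likewise chosen with earlier results of these data known.

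UMIs were summed per library, class or cluster and scaled to CPM. Intervals were exact Poisson (levels), exact binomial (shares) and exact conditional binomial (ratios), at 95%. PCR duplicates are collapsed by UMI, and the intervals cover counting error only. The interval code was tested on simulated data. Genes named were the 10 transporters, listed transporters with at least 20 CPM in a library, the 5 ATF4-linked genes with the largest ratio in size, Arg1 and Nos2, and the 3 genes most like each transporter with at least 1000 UMIs. Clusters, cluster leaders, Atf4 and the 2 lower ATF4-linked genes named beside them were chosen after their values were seen. Alternatives changed 1 choice at a time: cell filters, doublets, scaling, weighting of cells, cell mix, minimum count, size called, clustering, naming and thinning. Gene positions are from GENCODE M21 (GRCm38). Software was leidenalg 0.10.2 with igraph 0.11.9, scikit-learn 1.9.0, scipy 1.17.1, numpy 2.4.6, matplotlib 3.10.9 and pandas 2.3.3 under Python 3.11.15. The integrated object and cluster labels of the study were not used here.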

Additional observations from a re-analysis of the deposited data

Results flagged for a closer look

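Opposite directions between classes or clusters, both past the size and with intervals that leave out 0, were found for 4 of the genes examined. These differences were not tested, since there is 1 library per condition. Slc38a1 had a log2 ratio of DAB over DMSO of 0.77 in cluster L and -0.60 in cluster I, both chemokine-high granulocyte-like. Slc7a8 had 0.74 in cluster C and -0.62 in cluster O, both unnamed. Slc7a11 had 1.59 in intermediate granulocyte-like, 1.16 in mature PMN-like, 0.81 in chemokine-high granulocyte-like and 0.82 in immature monocyte-like cells, and -0.73 in mature monocyte-like cells. Arg1 had 1.22 in intermediate granulocyte-like and 0.58 in mature PMN-like cells, and -1.74 in immature monocyte-like and -3.51 in mature monocyte-like cells.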

How the results depend on the processing

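No paired analysis was possible because each condition has 1 library, and for the same reason no replicate could be left out. Over all cells, 0 of the 10 transporter ratios changed sign under any alternative. Their sizes did move, in part beyond the intervals for counting error. With equal weights of the clusters in both libraries, Slc7a5 went from 2.17 to 1.92 and Slc7a1 from 1.62 to 1.42. Slc6a9 then went from 3.04 to 2.46 and Slc3a2 from 1.195 to 0.98, whereas Slc7a3 rose from 5.88 to 6.46. Of 41 values within classes 6 crossed the size of 0.5 under some alternative (Slc38a1 in all but chemokine-high granulocyte-like cells, Slc38a2 in mature monocyte-like and Slc3a2 in mature PMN-like cells). The sign changed in 4 that were not called: Slc7a8 in mature PMN-like (0.37, down to -0.30), mature monocyte-like (-0.15, up to 0.26) and chemokine-high granulocyte-like cells (0.26, down to -0.0035), and Slc38a1 in the last (0.11, down to -0.14). The count of transporters higher over all cells was 9 and ranged from 8 to 10. It was 8 at a log2 ratio of at least 1, where 6.05% of all genes were higher and 7.37% lower. It was also 8 when clusters had equal weights in both libraries (Slc38a1 then at 0.42), beside 16.4% and 16.6% of all genes. As a mean over cells it was 10 (Slc7a8 at 0.51), beside 21.9% and 16.2%. That mean moved the median of all genes by 0.106 and the share of higher among called genes from 45.9% to 57.5%. The median log2 ratio of the transporters lay between 1.39 and 1.61. Across clusterings the 31 higher values within classes ranged from 25 to 35. The 25 came without alignment of the libraries, when 33 values in 4 classes were compared in place of 41 in 5. The count became 63 when every cluster took its nearest class, with 75 values in 8 classes. Of the further transporters, those higher went from 4 to 2 and those lower from 8 to 4 with a minimum of 200 UMIs. With that minimum 13.5% of all genes were higher and 14.5% lower. The further transporters went to 1 and 5 with a log2 ratio of at least 1, beside the 6.05% and 7.37% given above. Both falls are by construction. Unthinned shares of cells were larger for every transporter. Few UMIs of Slc7a3, Slc6a9 and Slc1a4 were found in the granulocyte classes compared, and the part of depth in this was not tested. For Slc7a3 in DAB, mature PMN-like cells had 4 of 8065800 UMIs and granulocyte progenitor-like cells 103 of 2598267.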
